A study of Mus musculus with 34 samples.

Results

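The genes described here encode the voltage-gated sodium channels, the voltage-gated calcium channels and the hyperpolarization-activated cyclic nucleotide-gated (HCN) channels, with their auxiliary subunits. They were taken by name: every protein-coding gene of the bulk RNA-seq table whose GENCODE symbol begins with *Scn* and a digit, with *Cacna*, *Cacnb* or *Cacng*, or with *Hcn* and a digit. This gave 44 of the 54532 genes in the table, of which 40 had enough counts to be among the 22018 genes tested. Bulk RNA came from dorsal hippocampi of 8 C57BL/6J males, 2 to 3 months old, that were housed singly and handled beforehand. In the homecage group (n = 4) the mice received no training, and in the SOR group (n = 4) they were taken 1 h after training in spatial object recognition, a task in which a mouse learns where objects stand in an open field. Each mouse gave 1 library, and the labels name no transgene, virus or drug for either group. The question was whether the transcripts of these channels differed between trained and homecage mice at this time point.

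Sodium channels open on depolarization and carry the upstroke of the action potential. Calcium channels open on depolarization as well, and the calcium they admit triggers transmitter release, shapes bursts of spikes and, in the case of the L-type channels, signals from the membrane to the nucleus. HCN channels open on hyperpolarization, carry the h-current and set the resting potential and the integration of inputs in the dendrites of pyramidal neurons. In each family a large subunit forms the pore, and in the sodium and calcium channels smaller auxiliary subunits control its traffic and gating.

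No channel gene passed the threshold in either direction. Of the 40 tested, 0 had an adjusted p under 0.05 in edgeR's quasi-likelihood test, where 0.309% of all genes did and 0.173% did so with a fold change above 1.4, and the lowest adjusted p was 0.457. DESeq2, limma-voom and edgeR's likelihood ratio test gave 0 as well. Without this adjustment 1 gene, *Hcn2*, had a p under 0.05, against 10.1% of all genes. In DESeq2 the 1 gene at this level was *Cacna2d3*, in limma-voom *Hcn2*, and in the likelihood ratio test there was none. For 0 of the 40 did the 4 SOR values lie beyond all 4 homecage values, a separation that 6.94% of all genes showed. There were 16 genes higher and 24 lower in SOR mice, and 56.2% of all genes were lower. The median log2 fold change was -0.03 over the channel genes and -0.02 over all genes.

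The measurement was narrow enough to bound most of these differences. The 95% interval of the fold change lay within 1.4-fold in either direction for 30 of the 40 channel genes, and for 58.9% of all genes. It lay within 1.2-fold for 25 of them, and for 33.0% of all genes. Interval width depends on expression, and among genes that averaged 10 CPM (read counts scaled by library size) or more, 28 of 29 channel genes were within 1.4-fold and 24 within 1.2-fold, beside 95% and 70.0% of the 9879 genes at that level. The exception among the 29 was *Cacna2d2*. The standard error (SE) of the log2 fold change ran from 0.036 for *Scn2b* to 0.503 for *Cacna1f*.

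**Figure D1:**
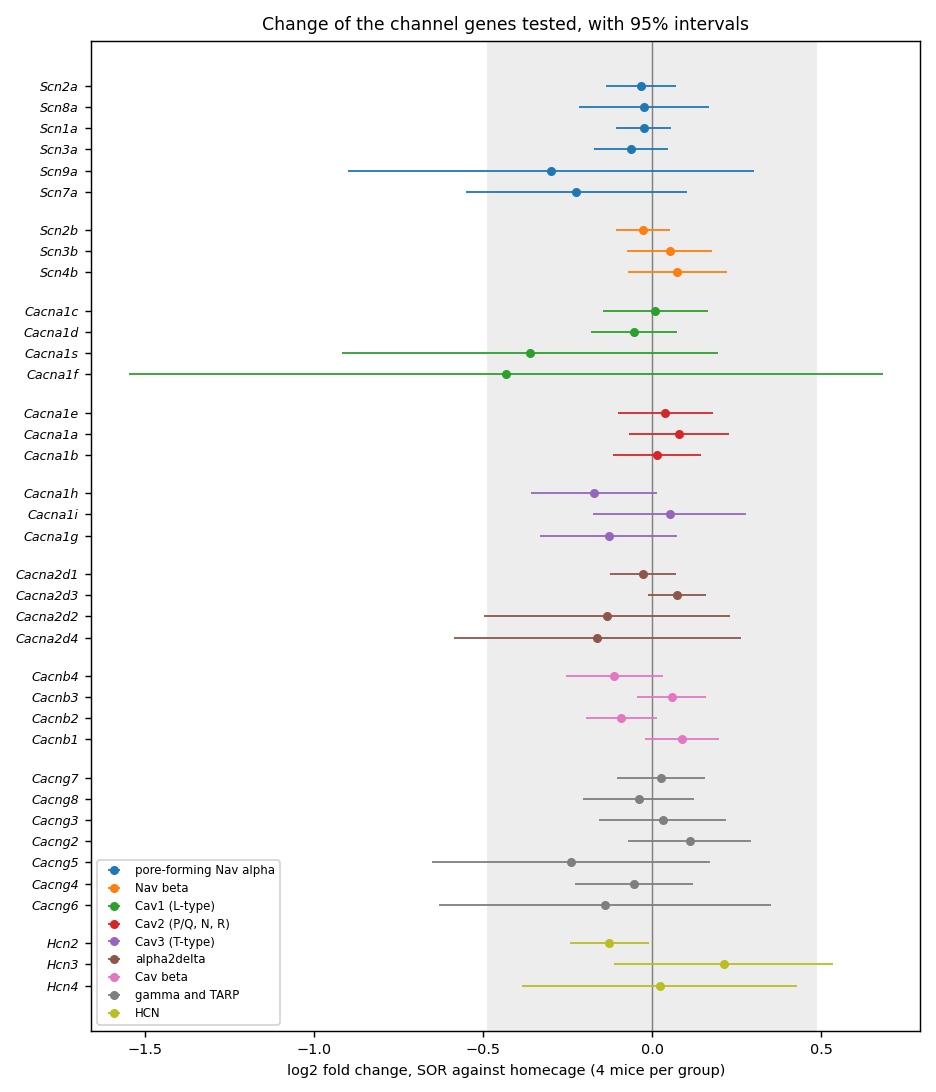
Log2 fold change of 37 of the 40 channel genes tested, SOR against homecage, grouped by subfamily and ordered by mean CPM within each. Points are estimates, bars are 95% intervals and the grey band marks a 1.4-fold change, so that 28 of the bars lie inside it and only the bar of *Hcn2* leaves 0 out.

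The depth of the libraries was 51406011 to 81525977 total counts, of which the channel genes took 0.377% to 0.409%. The 16 activity-regulated genes listed to check the labels separated the groups: 15 were higher in SOR mice without overlap and 12 passed the adjusted p threshold, with a median log2 fold change of 0.84. Several of them were chosen by the study on these samples, so that this is a check of the labels and no independent evidence. Markers of CA1, CA3, CA2 and dentate granule neurons were present in every library, and none of the 15 marker lists held a gene past the adjusted p threshold. Some lists ran in 1 direction. All 7 mature oligodendrocyte markers were lower in SOR mice (median log2 fold change -0.19), as were the 3 skeletal muscle markers tested (-0.46). All 5 choroid plexus (1.48), 3 red blood cell (0.37) and 4 CA1 markers (0.03) were higher. The other lists held genes of both directions. SOR replicate 1 stood apart: its counts differed from the other SOR libraries by a chi-square per degree of freedom of 45.2 to 49.2, where those 3 differed among themselves by 11.1 to 16.6 and the homecage libraries by 12.6 to 45.9. Its summed level of 5 choroid plexus markers was 3973 CPM, against 24.5 to 1085 CPM in homecage and 40.4 to 875 CPM in the other SOR libraries. The tissue is a mixture of cells, in which fewer cells of a type and less RNA per cell cannot be told apart.

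The pore-forming sodium channel subunits were led by *Scn2a*, which encodes Nav1.2, a channel of excitatory neurons. *Scn2a* (ENSMUSG00000075318, chromosome 2 of GRCm38 from 65620771 to 65767447) had 603, 627, 594 and 584 CPM in the homecage mice and 545, 602, 614 and 590 CPM in the SOR mice. Of the SOR values that of replicate 1 lay below the homecage range and that of the others inside it. Its log2 fold change was -0.03 (95% interval -0.14 to 0.07, adjusted p = 0.859 by edgeR), which limits the difference to between -9.12% and 4.91%.

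*Scn8a*, which encodes Nav1.6, the channel of the mature axon initial segment and node of Ranvier, had 342, 337, 377 and 338 CPM in homecage and 277, 377, 367 and 349 CPM in SOR mice. Of the 8 libraries SOR replicate 1 was lowest, and the other SOR values lay within 337 to 377 CPM like the homecage values. The log2 fold change was -0.03 with all samples and 0.06 without that library. *Scn1a*, which encodes Nav1.1, the main sodium channel of parvalbumin interneurons and the gene of Dravet syndrome, had 190 to 202 CPM in homecage and 188 to 199 CPM in SOR mice (log2 fold change -0.03, SE 0.0369). *Scn3a*, whose Nav1.3 is most abundant before birth, had 97.1 to 102 CPM and 87.5 to 103 CPM (-0.06, SE 0.0498).

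All 7 pore-forming sodium channel genes tested were lower in SOR mice, at a median log2 fold change of -0.06, and none passed the threshold. Without SOR replicate 1, 6 of 7 were lower (median -0.026), as were 6 of 7 without homecage replicate 1 (median -0.032). With both of these libraries left out, an omission chosen after seeing the data, 4 were lower and 3 higher, with a median of -0.001. Larger differences were seen in weakly expressed genes. *Scn9a*, Nav1.7 of pain-sensing neurons, had 5.60, 4.14, 2.91 and 3.20 CPM in homecage and 2.33, 3.24, 4.93 and 2.34 CPM in SOR mice. Homecage replicate 1 was the highest library and SOR replicate 3 the second highest. The log2 fold change of *Scn9a* was -0.30 (SE 0.271), and it was 0.04 with both first replicates left out. *Scn7a*, which encodes the sodium-sensing channel Nax, had 2.56 to 3.73 CPM and 2.36 to 3.08 CPM (-0.22, SE 0.148).

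Sodium channel genes of muscle and sensory neurons were barely detected. *Scn4a*, the skeletal muscle channel, had between 0 and 20.0 counts per library, *Scn10a*, Nav1.8 of nociceptors, between 0 and 6.21, and *Scn11a*, Nav1.9 of nociceptors, between 0 and 3.88. These genes and *Cacng1*, the skeletal muscle gamma subunit, with 0.98 counts in SOR replicate 2 and 0 in the other 7 libraries, were the 4 members that the filter on low counts removed. For *Scn4a*, homecage replicates 1 and 2 held 17.7 and 20.0 counts and the other 6 libraries 4.66 counts or fewer. Its difference of 0.184 CPM in homecage against 0.0389 CPM in SOR mice had an exact two-sided permutation p of 0.143. In the 2 edgeR fits whose filter kept *Scn4a*, its unadjusted p was 0.0232 with more than 5 counts asked of 2 samples and 0.0151 with no filter, and its adjusted p was 0.451 and 0.506.

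The proportions between the sodium channel genes were close in both groups. Per kb of annotated exon, *Scn2a* took 49.2% ± 0.820 (SD, n = 4) of the summed level of the 10 pore-forming genes in homecage and 49.3% ± 0.957 in SOR mice. *Scn8a* took 23.0% ± 1.27 and 23.1% ± 1.64, *Scn1a* 18.4% ± 0.520 and 18.6% ± 0.840, and *Scn3a* 8.29% ± 0.194 and 8.14% ± 0.300. Over the 8 libraries, *Scn2a* at 42.8 to 49.3 CPM per kb was above the rest. *Scn8a*, at 17.6 to 23.9 CPM per kb, and *Scn1a*, at 16.8 to 18.1 CPM per kb, overlapped in range. The exon length counts every annotated exon of a gene once, so that a gene whose longest exons are rarely used has its level per kb set too low.

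**Figure D2:**
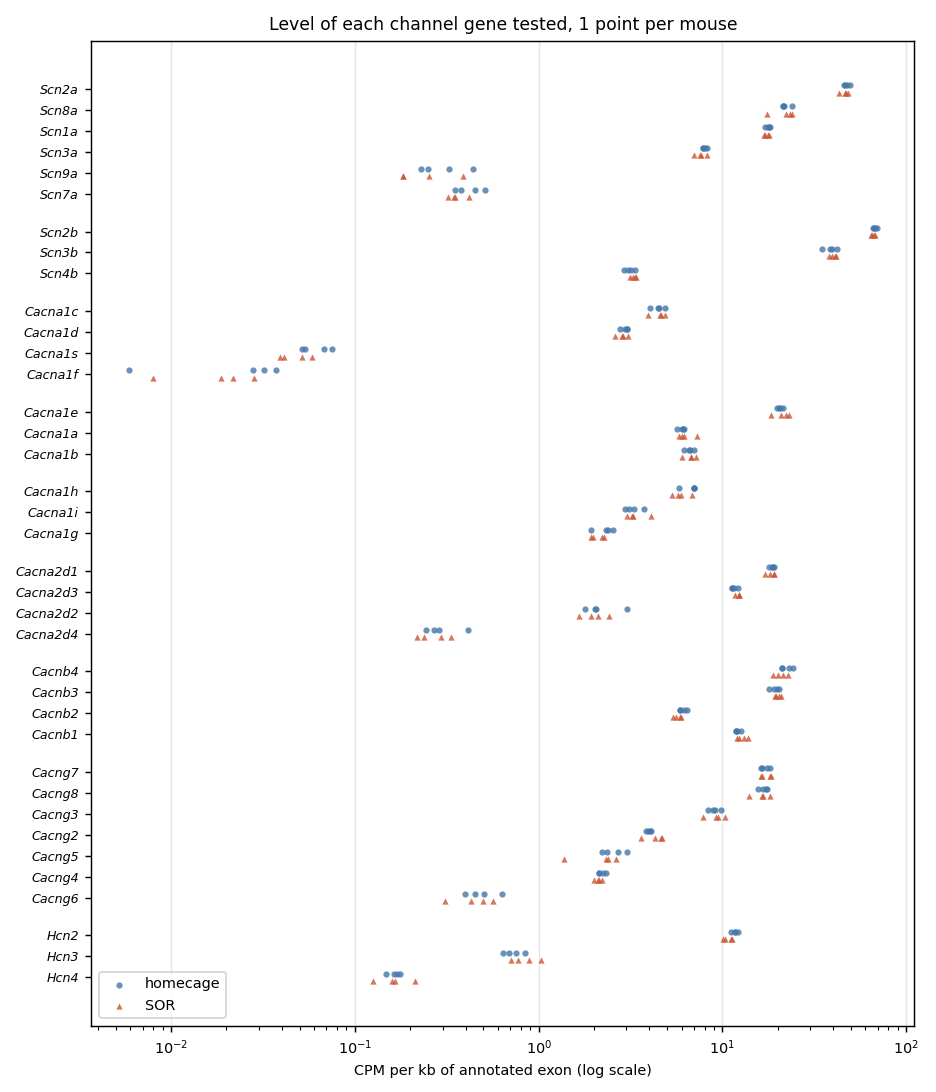
Level of 37 of the 40 channel genes tested in CPM per kb of annotated exon, on a log scale, with 1 point per mouse, circles for homecage and triangles for SOR. The points of both groups overlap in every row, while rows differ from 0.022 for *Cacna1f* to 66.8 for *Scn2b* as the mean of 8 mice.

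The sodium channel beta subunits are single-pass proteins that tune gating and act in cell adhesion. *Scn2b* (ENSMUSG00000070304, chromosome 9 from 45117782 to 45130070), whose product is linked to the pore by a disulfide bond, had 305, 313, 314 and 323 CPM in homecage and 304, 301, 315 and 312 CPM in SOR mice. SOR replicates 1 and 2 lay below the homecage range and the other SOR libraries inside it. Its log2 fold change was -0.03 (adjusted p = 0.856 by edgeR), and it had the narrowest interval of all the members, from -7.12% to 3.73%. *Scn3b*, whose product binds the pore without a disulfide bond, had 189 to 228 CPM in homecage and 207 to 227 CPM in SOR mice, which gave a log2 fold change of 0.05. *Scn4b*, whose product takes part in resurgent sodium current, had 14.4 to 16.6 CPM and 15.6 to 17.0 CPM, a log2 fold change of 0.07. Over the 4 genes of the subfamily 3 were higher and 1 lower, and per kb *Scn2b* was above *Scn3b* and *Scn3b* above *Scn4b* in each library, with ranges that did not overlap.

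The L-type pores Cav1.2 and Cav1.3, which link neuronal activity to transcription, came from *Cacna1c* and *Cacna1d*. *Cacna1c* (ENSMUSG00000051331, chromosome 6 from 118587240 to 119196418) had 85.5, 103, 95.4 and 94.4 CPM in homecage and 83.8, 103, 96.6 and 98.0 CPM in SOR mice. The lowest value of each group was that of replicate 1, and the log2 fold change was 0.01 (95% interval -0.15 to 0.17). *Cacna1d* had 35.0 to 38.4 CPM and 32.9 to 38.7 CPM, a log2 fold change of -0.05 (SE 0.0578). The skeletal muscle gene *Cacna1s*, at 0.255 to 0.490 CPM over all libraries, had a log2 fold change of -0.36 (SE 0.251). The retinal gene *Cacna1f*, at 0.0535 to 0.339 CPM, had one of -0.43 (SE 0.503). The antisense gene *Gm37759* overlaps 20.0% of the exon length of *Cacna1s* on the other strand. It averaged 3.96 counts per library, beside 22.7 for *Cacna1s*. The subfamily median of -0.21 lies between its well expressed and its weakly expressed pair.

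The Cav2 pores serve transmitter release and dendritic calcium entry, and *Cacna1e*, which encodes the R-type channel Cav2.3, was the most abundant calcium channel pore. *Cacna1e* (ENSMUSG00000004110, chromosome 1 from 154390731 to 154884501) had 502, 521, 537 and 515 CPM in homecage and 466, 580, 558 and 527 CPM in SOR mice. SOR replicate 1 was the lowest of the 8 and SOR replicates 2 and 3 the highest. Its log2 fold change was 0.04 (95% interval -0.10 to 0.18, adjusted p = 0.886 by edgeR), and without SOR replicate 1 it was 0.10 with an adjusted p of 0.518. *Cacna1a*, the P/Q-type pore of most central synapses, had 64.5 to 70.3 CPM in homecage and 66.4, 70.3, 82.9 and 69.0 CPM in SOR mice, differing by 0.08. (log2 fold change) *Cacna1b*, the N-type pore, had 61.6 to 69.9 CPM and 60.0 to 71.7 CPM, a log2 fold change of 0.02. All 3 were slightly higher in SOR mice, and none passed the threshold.

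The T-type pores open near rest and support burst firing. *Cacna1h*, which encodes Cav3.2 (ENSMUSG00000024112, chromosome 17 from 25374285 to 25433783), had 68.4, 68.5, 56.5 and 68.4 CPM in homecage and 51.6, 56.2, 58.0 and 66.8 CPM in SOR mice. In homecage 3 values lay within 0.1 CPM of each other with replicate 3 apart, and SOR replicate 4 lay close to those 3. Its log2 fold change of -0.17 (SE 0.0844, 95% interval -0.36 to 0.02) had an unadjusted p of 0.0681 and an adjusted p of 0.536 by edgeR. *Cacna1g*, Cav3.1, had 19.6 to 25.9 CPM and 19.6 to 22.9 CPM (-0.13, SE 0.0913), and *Cacna1i*, Cav3.3, had 29.0 to 37.1 CPM and 29.8 to 40.3 CPM (0.05, SE 0.102). With *Cacna2d2* and *Cacng2*, these were the 5 members of at least 10 CPM whose interval reached beyond 1.2-fold. The summed T-type level was 120 to 123 CPM in homecage and 106 to 121 CPM in SOR mice.

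Among the 10 calcium channel pores, *Cacna1e* held 38.8% ± 0.723 (SD, n = 4) of the summed level per kb in homecage and 39.8% ± 1.43 in SOR mice. *Cacna1h* followed with 12.7% ± 1.26 and 11.3% ± 1.12, *Cacna1b* with 12.5% ± 0.407 and 12.6% ± 0.248, and *Cacna1a* with 11.3% ± 0.231 and 11.9% ± 0.771. These 3 overlapped in range over the libraries. The L-type genes *Cacna1c* and *Cacna1d* held 8.43% ± 0.477 and 5.57% ± 0.302 in homecage, and 8.49% ± 0.360 and 5.37% ± 0.247 in SOR mice.

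**Figure D3:**
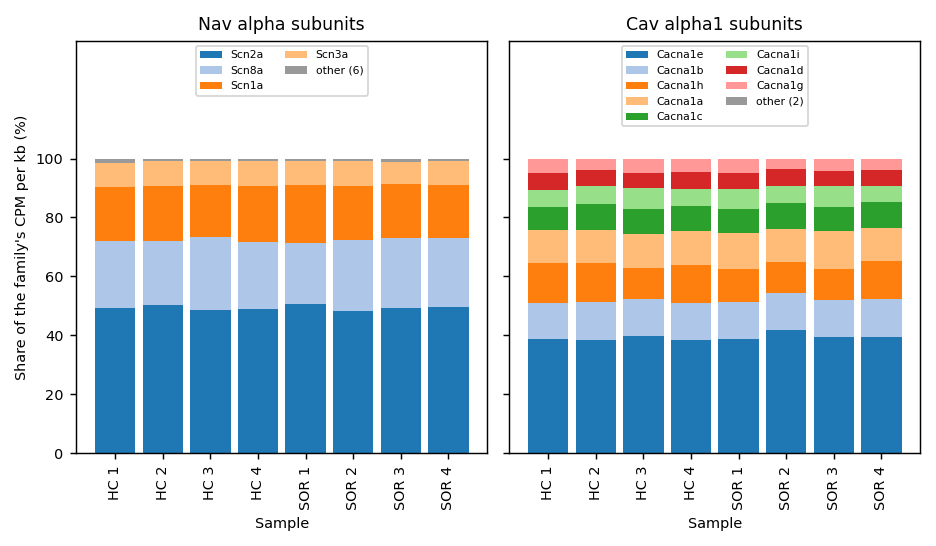
Share of each gene in the summed CPM per kb of its family, in percent, with 1 bar per mouse for the pore-forming sodium channel genes and the calcium channel pores; genes below 2% in homecage are pooled as other. The bars of homecage (HC) and SOR mice have nearly the same divisions, with *Scn2a* between 48.1% and 50.5% and *Cacna1e* between 38.3% and 41.9%.

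The alpha2delta subunits carry calcium channels to the surface and, as *Cacna2d1* and *Cacna2d2* products, bind gabapentin. *Cacna2d1* (ENSMUSG00000040118, chromosome 5 from 15934691 to 16374511) had 223, 232, 238 and 235 CPM in homecage and 212, 237, 236 and 224 CPM in SOR mice, differing by -0.03 (log2 fold change) (95% interval -0.12 to 0.07). *Cacna2d3*, a related subunit, had 98.1, 100, 97.9 and 106 CPM in homecage and 107, 107, 108 and 102 CPM in SOR mice. Of its SOR values 3 lay above all homecage values and replicate 4 did not. The log2 fold change was 0.07 (SE 0.0393, adjusted p = 0.574 by edgeR, exact two-sided permutation p = 0.0571). *Cacna2d2*, expressed in a subset of interneurons and in cerebellum, had 24.1 CPM in homecage replicate 1 and 13.1 to 19.3 CPM in the other 7 libraries. Its log2 fold change was -0.13 with that library and 0.05 without it. *Cacna2d4*, known from the retina, had 2.32 to 3.91 CPM and 2.07 to 3.15 CPM (-0.16, SE 0.192).

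The beta subunits bind the calcium channel pore inside the cell and hold it at the membrane. *Cacnb4* (ENSMUSG00000017412, chromosome 2 from 52428320 to 52676831) had 206, 218, 190 and 189 CPM in homecage and 203, 168, 192 and 180 CPM in SOR mice. SOR replicates 2 and 4 were below all homecage values and the other two were inside their range, with a log2 fold change of -0.11 (SE 0.0653, adjusted p = 0.614 by edgeR). *Cacnb2*, which includes a palmitoylated form, had 77.6 to 84.9 CPM and 70.9 to 79.2 CPM, a log2 fold change of -0.09. *Cacnb1* had 53.5 to 57.1 CPM and 54.7 to 62.3 CPM, a log2 fold change of 0.09. *Cacnb3* had 72.2 to 81.2 CPM and 77.6 to 83.5 CPM, a log2 fold change of 0.06. Thus 2 were higher and 2 lower, all 4 within 1.2-fold by interval. The exons of *Cacnb4* overlap those of the noncoding gene *A430018G15Rik* on the other strand over 16% of their length, and reads there cannot be assigned without strand. That gene averaged 102.8 counts per library, beside 12334 for *Cacnb4*.

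The gamma family is named for the muscle calcium channel subunit, but *Cacng2*, *Cacng3*, *Cacng4* and *Cacng8* encode transmembrane AMPA receptor regulatory proteins (TARPs) that carry AMPA receptors to synapses, and *Cacng5* and *Cacng7* related ones. *Cacng7* (ENSMUSG00000069806, chromosome 7 from 3332955 to 3368221) had 39.5, 40.2, 42.5 and 44.1 CPM in homecage and 39.6, 40.2, 45.1 and 44.5 CPM in SOR mice, which gave a log2 fold change of 0.03. *Cacng8*, gamma-8, the TARP most characteristic of hippocampus, had 36.8 to 40.9 CPM and 32.9 to 42.5 CPM, a log2 fold change of -0.04 (95% interval -0.20 to 0.12). Per kb these 2 genes were alike, at 16.2 to 18.5 and 14 to 18.1 CPM per kb, and together with *Cacng3* they held most of the family's level.

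*Cacng2*, stargazin, had 21.7, 22.3, 21.3 and 22.6 CPM in homecage and 19.8, 23.7, 25.9 and 25.6 CPM in SOR mice. SOR replicate 1 lay below all homecage values and the other 3 above them. Its log2 fold change was 0.11 (SE 0.0825, adjusted p = 0.706 by edgeR). Without SOR replicate 1 it was 0.19 (SE 0.0571, unadjusted p = 0.00871, adjusted p = 0.336 by edgeR), the lowest adjusted p of any member in that fit. There 4 of the 40 members had an unadjusted p under 0.05, beside 9.65% of all genes. *Cacng5* had 11.6, 9.04, 8.44 and 10.3 CPM in homecage and 5.24, 8.94, 10.1 and 9.15 CPM in SOR mice, differing by -0.24 (log2 fold change), which became 0.02 with both first replicates left out. *Cacng3* had a log2 fold change of 0.03, *Cacng4* of -0.05 and *Cacng6* of -0.14.

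In the HCN family, *Hcn2* was the one channel gene with an unadjusted p under 0.05. Its product is the strongly cAMP-sensitive HCN2 channel. *Hcn2* (ENSMUSG00000020331, chromosome 10 from 79716634 to 79736108) had 35.8, 37.4, 37.4 and 38.8 CPM in homecage and 32.3, 32.9, 35.7 and 35.9 CPM in SOR mice. The lowest homecage value lay just below the highest SOR value, so that the groups overlapped by this 1 pair. The log2 fold change was -0.13 (SE 0.0529, 95% interval -0.24 to -0.01), or between -15.6% and -0.714%. The p was 0.0356 before and 0.457 after adjustment over all genes by edgeR, and the exact two-sided permutation p was 0.0571. With 10.1% of all genes at an unadjusted p under 0.05, 1 of 40 is not above the background. Without SOR replicate 1 this p was 0.0772, and with TMM or RLE scaling *Cacna2d3* and *Cacnb1*, not *Hcn2*, had a p under 0.05.

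*Hcn3* had 2.65 to 3.52 CPM and 2.93 to 4.28 CPM, a log2 fold change of 0.21 (SE 0.146), the largest positive one among the members. The liver and red cell pyruvate kinase gene *Pklr* overlaps 17.1% of its exon length on the other strand. *Pklr* averaged 12.6 counts per library, beside 204.9 for *Hcn3*. *Hcn4*, the pacemaker channel of the sinoatrial node, had 0.904 to 1.07 CPM and 0.766 to 1.31 CPM, a log2 fold change of 0.02.

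Some libraries differed from the rest over many channel genes at once. SOR replicate 1 was the lowest of the 8 libraries for 20 of the 40 channel genes (50.0%), beside 22.4% of all genes. It was the highest for 0 of them, beside 15.0% of all genes. Its median deviation from the other SOR libraries was -0.12 (log2) over the channel genes and -0.03 over all genes. Without it, 20 channel genes were higher and 20 lower in SOR mice, the median log2 fold change was 0.001 and the lowest adjusted p was 0.336. In that library the deviation also ran with gene length, over 9431 protein-coding genes that averaged 10 CPM or more. Its median was 0.04 in the shortest of 5 equal bins of exon length and -0.06 in the longest. The other SOR libraries had such trends too, from 0.04 to -0.02 in replicate 4. In replicates 2 (-0.03 to 0.05) and 3 (-0.05 to 0.03) the trend ran the other way. Of the 29 channel genes at that level, 17 were in the longest bin. Over all 29 the median deviation of SOR replicate 1 was -0.13. The part of gene length and of the choroid plexus markers in these low values was not tested.

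SOR replicate 3 was the highest library for 11 of the 40 channel genes (27.5%), beside 12.6% of all genes. Homecage replicate 1 was the highest for 7 (17.5%, beside 13.1% of all genes) and the lowest for 7 (17.5%, beside 12.3% of all genes). Within the homecage group it was the lowest for 17 of the 40, beside 30.6% of all genes. Among the 7 in which it was the highest library were *Scn9a*, *Cacna2d2* and *Cacng5*, genes that were picked after their values were seen. In homecage replicate 1 the 6 thalamus and habenula markers summed to 142 CPM, against 112 to 136 CPM in the other 7 libraries. Of the 6, *Prkcd* (42.0 CPM, against 20.6 to 37.8 CPM) and *Slitrk6* were highest in it and the other 4 in SOR libraries, and without *Prkcd* the sum was 100.4 CPM, inside the 91.8 to 102.4 CPM of the other libraries. The 4 striatum markers summed to 48.6 CPM in it, 37.9 to 44.3 CPM in the other homecage and 40.4 to 57.8 CPM in the SOR libraries. The part of neighbouring tissue in these values was not tested.

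**Figure D4:**
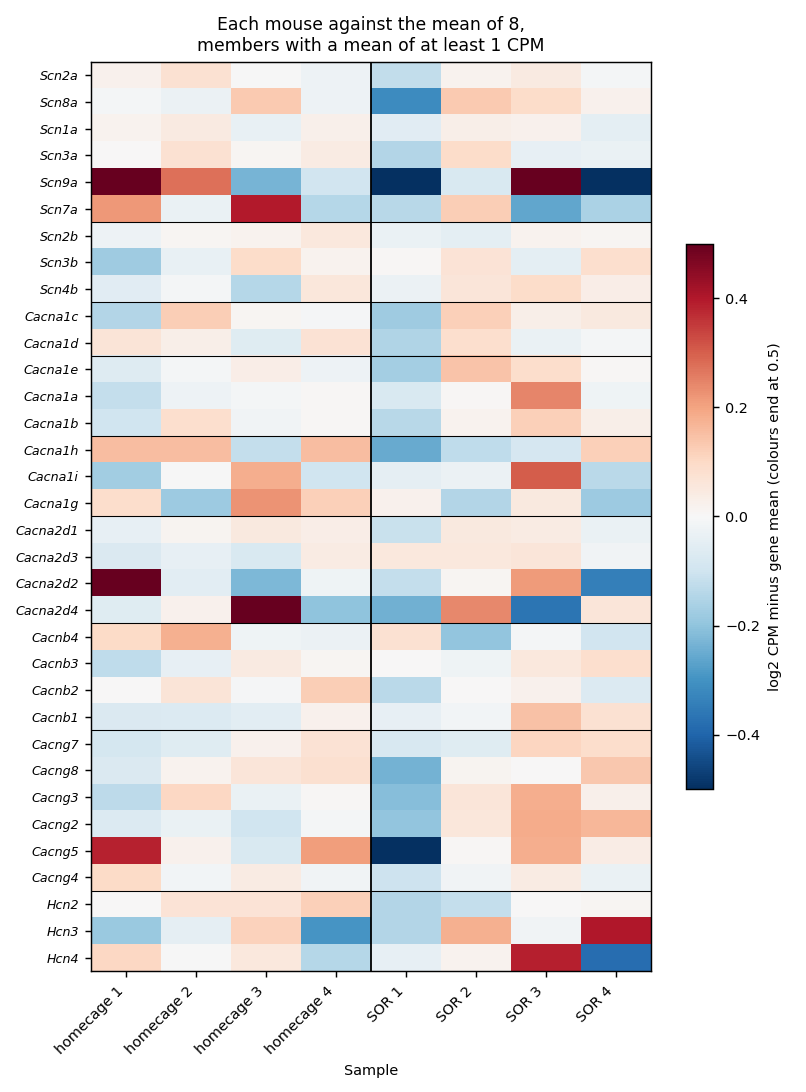
Log2 CPM of each channel gene in each mouse minus the gene's mean over the 8 mice, for 34 members tested with a mean of at least 1 CPM, with subfamilies divided by lines. Blue is low and red is high, and the column of SOR replicate 1 is blue for most genes, while the first column has red cells at *Scn9a*, *Cacna2d2* and *Cacng5*.

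The list of channel partners held 43 symbols, of which 42 were found and tested: cytosolic proteins that bind the channels, scaffolds of the axon initial segment, calmodulin and its kinases, and intracellular calcium release channels. Of these, 21 were higher and 21 lower. The groups were separated without overlap for 2 of the 42, *Gem* and *Nalcn*, and for 6.94% of all genes. The adjusted p threshold was passed by 0, and 6 had an unadjusted p under 0.05 (14.3%), beside the 10.1% of all genes. The lowest was that of *Gem*, a small GTPase of the RGK group that binds the beta subunit and reduces calcium channels at the surface. *Gem* had 2.03, 1.80, 1.59 and 1.79 CPM in homecage and 2.90, 2.92, 2.78 and 2.22 CPM in SOR mice. Every SOR value was above every homecage value. The log2 fold change was 0.59 (SE 0.135, adjusted p = 0.140 by edgeR, exact two-sided permutation p = 0.0286, the smallest that 4 against 4 allow), and DESeq2 gave an adjusted p of 0.00899. Over the 13 alternatives with all samples the adjusted p ran from 0.00742 to 0.2997. It was under 0.05 in 4 of them, namely DESeq2 and the fits with 1, 2 or 3 RUVs factors. The RUVs fits used edgeR's likelihood ratio test, which without factors gave 0.0537 for *Gem*, and limma-voom gave 0.136. With 1 library left out, the adjusted p by the quasi-likelihood test ran from 0.125 to 0.3495. It was 0.2575 with both first replicates left out.

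The other RGK genes did not pass the adjusted p threshold either. *Rem2*, an activity-regulated member of the group, had 10.5 to 11.6 CPM in homecage and 11.5 to 13.3 CPM in SOR mice (log2 fold change 0.18, adjusted p = 0.443 by edgeR). *Rrad* had 0.571 to 0.828 CPM and 0.314 to 0.721 CPM (-0.67, adjusted p = 0.457 by edgeR). *Rem1* was weakly expressed, with 0.178 to 0.435 CPM and 0.144 to 0.275 CPM (-0.75, adjusted p = 0.496 by edgeR). *Nedd4l*, a ubiquitin ligase that takes sodium channels from the membrane, had 116 to 136 CPM and 134.8 to 147.5 CPM (0.15, adjusted p = 0.381 by edgeR). *Nalcn*, the sodium leak channel, had 156 to 160 CPM in homecage and 145 to 154 CPM in SOR mice, fully separated at a log2 fold change of -0.08 (adjusted p = 0.493 by edgeR). Large scaffolds of the sodium channel were close to 0, with log2 fold changes of 0.01 for *Ank3*, ankyrin-G of the axon initial segment, and 0.03 for *Sptbn4*, beta-IV spectrin.

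**Figure D5:**
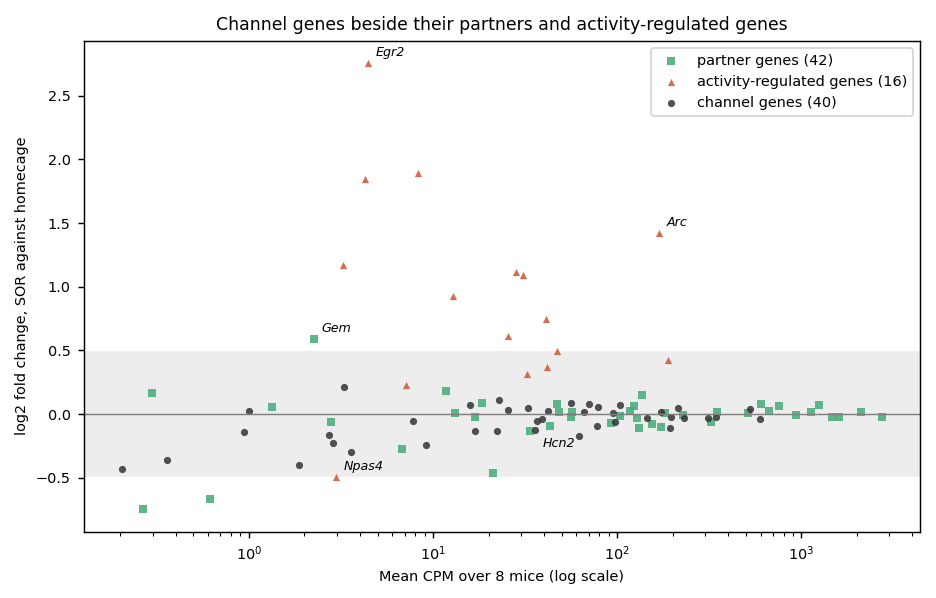
Log2 fold change, SOR against homecage, over mean CPM of 8 mice on a log scale, for 40 channel genes, 42 partner genes and 16 activity-regulated genes. The grey band marks a 1.4-fold change: the channel points stay inside it, *Gem* lies above it with *Arc* and *Egr2*, and *Npas4* is the activity-regulated gene below 0.

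Promoters of activity-regulated genes are known to bind CREB at cAMP response elements and EGR factors at GC-rich sites, and the promoter letters of the channel genes are described here beside theirs. The part of these motifs in the expression values was not tested. RefSeq promoters of build GRCm38.p6 were at hand for 32 of the 44 channel genes and 13 of the 16 activity-regulated genes, and the 250 bases before each start were searched on both strands. The core of the cAMP response element, TGACG, was in 6 of 32 channel genes (18.8%), in 19.8% of the 27025 genes with a promoter and in 13 of 13 activity-regulated genes. The palindrome TGACGTCA, which contains that core, was in 0 channel genes and 1.77% of all genes. The EGR motif GCGNGGGCG was in 7 channel genes (21.9%), 5.33% of all genes and 3 activity-regulated genes. The AP-1 motif TGANTCA was in *Cacng5* alone among the channel genes (7.82% of all genes), and the NR4A motif AAAGGTCA in *Scn8a* alone (1.55% of all genes). Over all starts, the median GC content of this window was 56.8% for channel genes and 52.4% for all genes. In windows with the EGR motif it was 53.2% (*Scn7a*), 68.0% (*Scn8a*), 70.4% (*Hcn2*), 72.0% (*Cacna1b*), 74.4% (*Cacna2d2*), 82.4% (*Cacna2d1*) and 82.8% (*Cacna1c*). The part of GC content in the share of EGR matches was not tested. A match is a run of letters and no proof of binding.

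The following stretches carry the EGR letters in 4 channel genes and in *Nr4a1*, which rose from 17.8 to 38.7 CPM, followed by the cAMP response element core in 2 calcium channel genes and in *Fos*, which rose from 3.55 to 13.1 CPM. Capitals mark the match, and each is written along the strand of its gene, before 1 of its RefSeq starts, at chr10:79716545-79716573 (+), chr15:100870560-100870588 (+), chr2:24763268-24763296 (-), chr6:119108635-119108663 (-), chr15:101266776-101266804 (+), chr2:24763225-24763249 (-), chr5:15934535-15934559 (+) and chr12:85473814-85473838 (+).
Hcn2, EGR: gcggggctccCGCCCCCGCccctcccccg
Scn8a, EGR: cgtggggccgGCGGGGGCGtcgcggaggc
Cacna1b, EGR: gcggactccgGCGGGGGCGgccgcggggg
Cacna1c, EGR: gcaggggcggGCGCGGGCGcggcggggct
Nr4a1, EGR: gcgtcagtggCGCCCCCGCccctctccat
Cacna1b, core: ggggtgtgacTGACGcggattggct
Cacna2d1, core: cgcccggctcTGACGcccggccctc
Fos, core: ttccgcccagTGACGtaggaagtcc
In *Hcn2* and *Nr4a1* the EGR letters stand on the other strand and read as their reverse complement. The channel genes shown had log2 fold changes of -0.13 (*Hcn2*), -0.03 (*Scn8a*), 0.02 (*Cacna1b*), 0.01 (*Cacna1c*) and -0.03 (*Cacna2d1*), none past the threshold, beside 1.12 for *Nr4a1* and 1.89 for *Fos*.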

How the data were processed

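Only the bulk RNA-seq libraries of 4 homecage and 4 SOR mice were used, and the other samples of the series were not analysed here. The methods name a stranded kit for total RNA from which ribosomal RNA was depleted, whereas polyA RNA stands in the labels. Reads were aligned by the authors with STAR within bcbio-nextgen, and the methods name featureCounts for gene counts. The deposited values are estimated counts labelled as a tximport summary, not normalized, of which 52.6% were not whole, and featureCounts in its usual mode gives whole counts. Which quantifier made this summary, and whether counting used strand, are not given in the sources used here.

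Gene types and positions came from GENCODE M21 (GRCm38), with records for 54495 of 54532 genes. Estimated counts were rounded, filtered with filterByExpr and scaled by upper-quartile factors, and CPM refers to the scaled library sizes. For the comparison, the edgeR 4.0.16 quasi-likelihood F test was run in R 4.3.3, p was adjusted over 22018 genes by the Benjamini-Hochberg method, and calls needed an adjusted p under 0.05. SEs and 95% intervals follow from the fold change and its F value. A permutation test on log2 CPM (prior count 0.5), exact and two-sided, was added for single genes. The script was tested on simulated data.

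Given in full were members with an unadjusted p under 0.05 and members with separated groups. So was, in each subfamily, the member with the highest level per kb among those reported by name. Of the 5 partners of lowest p, *Gem* was given by library and the others by range. Other members are given by range, or by library where 1 stood apart, and 3 members tested are counted but not reported by name here. The members and lists were chosen with earlier results of these data known. As alternatives, scaling (TMM, RLE, library size), the filter and the test (likelihood ratio, DESeq2 1.42.0, limma-voom of limma 3.58.1) were varied. Other alternatives were 1 to 3 RUVs factors, fitted with the likelihood ratio test, a replicate block, unrounded counts and the omission of each library. The omission of both first replicates was added after seeing the data. The labels give no sequencing batch. Total counts were 51406011 to 81525977, and replicates differed by more than counting error, with a chi-square per degree of freedom of 11.1 to 49.2. Python 3.11.15 with pandas 2.3.3, numpy 2.4.6 and matplotlib 3.10.9 made the tables and figures.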

Additional observations from a re-analysis of the deposited data

Results flagged for a closer look

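In 3 of the 80 groups of 4 values that the 40 channel genes tested give (3.75%), 1 mouse lay apart from the other 3 by more than Dixon's 95% critical value for 4 samples, as the gap over the range; over all genes 5.70% of groups did, and chance gives about 1 in 20. *Cacna1h* had 56.5 CPM in homecage replicate 3 and 68.4 to 68.5 CPM in the other homecage mice, a gap of 0.9948 of the range. *Cacna2d3* had 102 CPM in SOR replicate 4 and 107 to 108 CPM in the other SOR mice, a gap of 0.8821. *Scn8a* had 377 CPM in homecage replicate 3 and 337 to 342 CPM in the other homecage mice, a gap of 0.8692. Without homecage replicate 3 the log2 fold change of *Scn8a* was 0.01. SOR replicate 1, the lowest library for 20 of the members, gave none of these 3.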

How the results depend on the processing

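No channel gene passed an adjusted p of 0.05 with edgeR, DESeq2 or limma-voom under the 13 alternatives with all samples or with 1 library left out in turn, and the lowest adjusted p was 0.101 and 0.315. The median log2 fold change of the channel genes lay between -0.053 and 0.00095 with 1 library left out and was 0.016 with both first replicates left out. Of 520 values of single members under the alternatives with all samples, 518 had the direction first given; the exceptions were *Hcn4*, -0.0043 with the replicate block, and *Scn8a*, 0.0013 with 3 RUVs factors. The labels do not say whether the replicate numbers pair the mice. Deviations of same-numbered libraries correlated between -0.083 and 0.044 and those of other pairs between -0.17 and 0.19. So few pairs cannot decide whether same-numbered mice were handled together. The block left the channel genes without a call.

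With 1 library left out, 22 of 320 values turned, in 15 members; the log2 fold changes of 12 of them ranged from -0.024 to 0.060 for *Cacna1b*, from -0.034 to 0.066 for *Cacna1c*, from -0.0038 to 0.097 for *Cacna1e*, from -0.050 to 0.12 for *Cacna1i*, from -0.048 to 0.0033 for *Cacna2d1*, from -0.23 to 0.053 for *Cacna2d2*, from -0.28 to 0.019 for *Cacna2d4*, from -0.026 to 0.10 for *Cacng3*, from -0.0051 to 0.056 for *Cacng7*, from -0.097 to 0.026 for *Cacng8*, from -0.13 to 0.13 for *Hcn4* and from -0.074 to 0.063 for *Scn8a*. Leaving out both first replicates turned *Cacna2d2* (0.074), *Cacng5* (0.018), *Scn8a* (0.054) and *Scn9a* (0.038), among others.

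Over all genes, 33 were called higher and 5 lower with a fold change above 1.4. The calls were 69 and 36 with the likelihood ratio test, 82 and 32 with DESeq2, and 60 and 8 without the fold threshold. With 1, 2 and 3 RUVs factors added to the likelihood ratio test, they were 83 and 51, 104 and 87, and 105 and 98. Without a filter 8 were lower, with the replicate block 3 were lower, and with 1 library left out 20 to 34 were higher and 2 to 5 lower, the fewest without homecage replicate 2. The cause was not tested. Most members under 10 CPM had wide intervals that reached beyond 1.4-fold, with *Cacng4* and *Hcn4* as the exceptions. No limit of detection was computed.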
